A study of Mus musculus with 37 samples.

Results

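Fkbp5, Tsc22d3, Per1, Sgk1, Zbtb16, Klf9 and Errfi1 are 7 genes known from the literature as targets of the glucocorticoid receptor, several of them also of the progesterone receptor. They were taken by name from 52636 genes counted in mature luminal cells of the mouse mammary gland, with earlier results of these data known. Counts of members called are therefore described beside the share of all genes and not tested against it. All 7 passed the filter on low counts that kept 18426 genes for testing. The study set mice with a point mutation in the estrogen receptor gene Esr1, D542G or Y541S, against mice with the wild-type gene (WT). Mice were raised to 8 weeks of age and ovariectomized, and carried pellets of estradiol (E2), progesterone (P4), both, or placebo for 8 days before the glands were taken and mature luminal cells were sorted by FACS.

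The 12 groups were E2+P4, P4, E2 and placebo in D542G, in Y541S and in WT mice. There were 3 libraries in each group, and 4 in WT P4. All groups, placebo included, had lost their ovaries, and the labels record neither adrenal surgery nor a glucocorticoid treatment. How the alleles were made, whether mice carried 1 or 2 mutant copies, and whether each library came from 1 mouse or a pool are not given in the sources used here. Spread among libraries, which may be technical, is therefore what the p-values measure.

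Libraries held 25.69 to 52.24 M counts (median 41.26 M, where M stands for 1e6), and 3 of them, Y541S placebo sample 5 and WT P4 samples 4 and 5, carried identifiers of a later series and were the shallowest, at 31.33 M or less. Markers of hormone-sensing luminal cells averaged log2 CPM (gene counts scaled to a common library total) of 5.53 to 9.29 across libraries, against 1.43 to 5.2 for basal, 0.05 to 4.16 for fibroblast and -2.98 to 1.38 for leukocyte markers. The leukocyte gene Itgam was listed at 0 in all 37 libraries, while Lyz2 reached 4788 counts. Csn3, on the luminal progenitor and alveolar list, was also at 0 in all 37, while Csn2 reached 44609 counts. Whether such a 0 reflects absent RNA was not tested. Fibroblast markers summed to 4041.7 and 4124.5 CPM in Y541S placebo samples 2 and 3, against 445.2 CPM in sample 5 and 37.6 to 320.5 CPM in WT placebo. Their mean log2 CPM was 2.67 and 2.9 in those samples and 4.16 in sample 5, so the sum and the mean order these samples differently. Among the fibroblast markers Dcn had by far the highest count in any library, 162683, against 8845 for the next, Col3a1. A sum can therefore rest largely on Dcn. The part of the fibroblast markers in the Y541S responses, which all use this placebo group, was not tested. Luminal progenitor and alveolar markers averaged above the hormone-sensing markers in all 3 WT E2 libraries (6.85, 7.38 and 7.02 against 6.05, 5.53 and 6.75), in Y541S E2 samples 1 and 2 (8.1 and 7.7 against 7.25 and 6.92) and in Y541S placebo sample 5. In these 6 libraries the marker levels do not single out mature luminal cells. Esr1 averaged 171.2 ± 25.9 CPM in D542G placebo and 82.1 ± 25.1 CPM in Y541S placebo, against 688.2 ± 129.7 CPM in WT placebo (SD, n = 3 each). Gene counts do not show which allele was transcribed. In an alternative fit, 3 libraries that stood apart on the hormone-sensing, progenitor or G2 and M phase lists were left out. Y541S placebo sample 5 had a hormone-sensing mean of 6.87, against 7.81 and 8.02 in its group, and a progenitor and alveolar mean of 7.16, against 4.9 and 4.53. WT placebo sample 2 and WT P4 sample 2 had G2 and M phase means of 4.8 and 4.22, where the other libraries of those groups had 0.18 or less. Other libraries that departed from their groups were kept in that fit. D542G P4 sample 2 had a fibroblast mean of 4.0, against 1.56 and 1.08, and a leukocyte mean of 0.46, against -2.22 and -1.56. WT E2 sample 1 had a leukocyte mean of 1.0, against -1.78 and -1.48. G2 and M phase means ran from 0.6 to 3.95 in D542G placebo. In sorted bulk RNA, fewer cells of a type and less RNA per cell cannot be told apart.

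Glucocorticoid, mineralocorticoid and progesterone receptors are hormone-activated transcription factors that bind the same palindromic DNA element, and genes with such elements can therefore answer to more than one steroid. FKBP5 is a cochaperone of the HSP90 complex that lowers the hormone affinity of the glucocorticoid and progesterone receptors, and its own induction closes a negative feedback loop. In the mammary gland, estradiol acting on mature luminal cells is known to induce the progesterone receptor, and progesterone then drives side branching and alveolar growth through signals that these cells send to their neighbours.

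RefSeq promoter windows were read for the members to look for the palindromic element that these receptors bind. The table used held windows for 6 of the 7 genes, 15 windows in all on GRCm38.p6, each of 250 bases before a transcription start; Zbtb16 had none in it. The full element, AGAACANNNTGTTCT on either strand, was present in 3 of 32851 windows of all genes (0.00913%), and 1 of those 3 belonged to Sgk1. The Sgk1 window is shown for that element, at bases -189 to -175 from the start, and capitals mark the element together with an E-box, CACGTG, that overlaps by 2 bases an inverted half-site, TGTTCT.
Sgk1, chr10:21993640-21993889, plus strand, GRCm38.p6: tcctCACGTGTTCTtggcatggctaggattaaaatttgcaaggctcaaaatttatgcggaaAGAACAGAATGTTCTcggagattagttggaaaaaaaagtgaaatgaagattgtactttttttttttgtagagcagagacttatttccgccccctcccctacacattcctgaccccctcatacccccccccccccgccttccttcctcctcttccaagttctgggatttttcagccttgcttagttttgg
The shorter form GNACANNNTGTNC was found in 0.387% of all windows and among the members only in the same Sgk1 window. Half-sites, AGAACA on either strand, were common at 16.1% of windows and lay in 4 of the 15 member windows, in Sgk1 and Tsc22d3. The Fkbp5 window is shown because Fkbp5 has the largest hormone response of the set while its proximal promoter holds none of the receptor motifs searched. Its capitals mark an E-box at bases -169 to -164, a motif bound by clock and MYC-family factors that 6.02% of windows hold and that was also found in the Per1 and Sgk1 windows.
Fkbp5, chr17:28486150-28486399, minus strand, GRCm38.p6: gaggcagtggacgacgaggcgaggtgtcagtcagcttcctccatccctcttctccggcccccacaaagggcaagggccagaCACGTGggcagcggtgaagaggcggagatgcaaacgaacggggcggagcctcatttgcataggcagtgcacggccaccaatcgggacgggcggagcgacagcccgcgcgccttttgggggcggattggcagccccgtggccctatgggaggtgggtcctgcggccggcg
The Errfi1 window holds a cAMP response element, TGACGTCA, at bases -51 to -44 (capitals), which 1.55% of windows hold.
Errfi1, chr4:150854820-150855069, plus strand, GRCm38.p6: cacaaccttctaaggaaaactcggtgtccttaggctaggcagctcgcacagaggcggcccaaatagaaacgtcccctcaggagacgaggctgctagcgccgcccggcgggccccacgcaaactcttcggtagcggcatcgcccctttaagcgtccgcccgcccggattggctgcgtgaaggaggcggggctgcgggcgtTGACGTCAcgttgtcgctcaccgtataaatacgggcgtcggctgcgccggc
The estrogen response element GGTCANNNTGACC was found in 0.0639% of windows and in no member window. Motif matches describe letters in these windows and say nothing of binding or of more distant elements.

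Fkbp5, Tsc22d3 and Zbtb16 were higher with E2+P4 than with placebo in all 3 genotypes, and the other 4 members had patterns of their own. In WT cells, E2+P4 called 5 of the 7 members (edgeR quasi-likelihood test with Benjamini-Hochberg adjusted p under 0.05), where 23.4% of all genes tested were called. The same comparison called 3 of 7 in D542G cells (25.4% of all genes) and 5 of 7 in Y541S cells (18.5%). P4 alone called 5 of 7 in D542G (18.4% of all genes), 2 of 7 in Y541S (11.3%) and 1 of 7 in WT (1.43%). E2 alone called 2 of 7 in D542G (15.7%), 1 of 7 in Y541S (4.65%) and 3 of 7 in WT (31.5%), so its counts lay near those backgrounds. Adding P4 to E2 called 4 of 7 members in D542G (20.9% of all genes), 5 of 7 in Y541S (10.4%) and 5 of 7 in WT (18.5%). Adding E2 to P4 called 0 of 7 in D542G (5.17%), 1 of 7 in Y541S (1.68%) and 4 of 7 in WT (23.2%). The median log2 fold change of the 7 members with E2+P4 was 0.72 in D542G, 0.8 in Y541S and 2.2 in WT, beside medians over all genes of 0.06, -0.04 and 0.01.

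**Figure D1:**
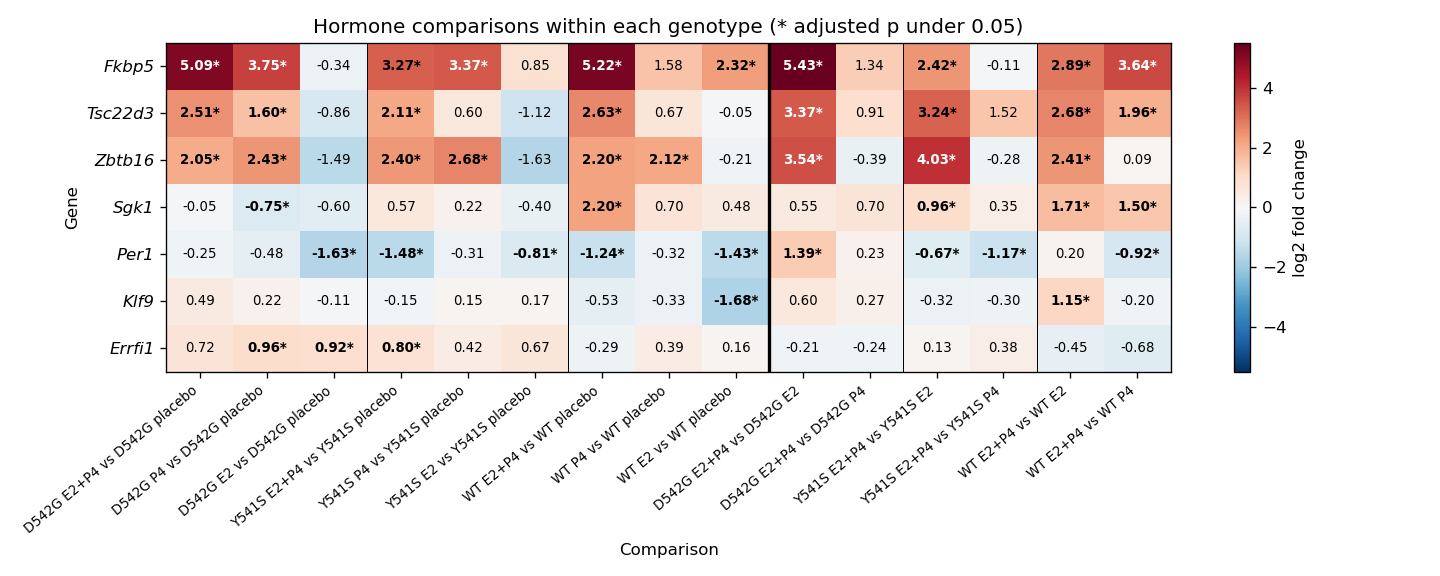
Log2 fold changes of the 7 genes (rows) in the 15 hormone comparisons within a genotype (columns), with an asterisk where the edgeR adjusted p was under 0.05. Comparisons with placebo stand left of the thick line and comparisons of E2+P4 with a single hormone right of it; Fkbp5 with E2+P4 is between 3.27 and 5.22 against placebo, and Errfi1 is called in no WT column.

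Fkbp5 lies at chr17:28399094-28517527 on the minus strand (GENCODE M21 on GRCm38), in a span shared with 4 noncoding genes. In D542G cells it had 413.0, 427.2 and 621.3 CPM with E2+P4, 258.5, 186.3 and 134.0 CPM with P4 and 12.3, 11.3 and 10.4 CPM with E2, against 23.2, 13.0 and 6.91 CPM with placebo. Every D542G library given P4, alone or with E2, lay above every D542G library without P4. Relative to placebo the log2 fold change was 5.09 ± 0.55 with E2+P4 (SE; 34.0-fold, adjusted p = 1.47e-07), 3.75 ± 0.52 with P4 (13.4-fold, adjusted p = 2.47e-05) and -0.34 ± 0.47 with E2 (adjusted p = 0.675). E2+P4 against P4 alone was 1.34 ± 0.47 with ranges apart, and did not pass the test (adjusted p = 0.101).

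In Y541S cells Fkbp5 had 261.7, 347.2 and 284.7 CPM with E2+P4, 287.4, 343.9 and 331.4 CPM with P4 and 59.5, 59.0 and 49.0 CPM with E2, against 13.6, 11.2 and 68.4 CPM with placebo. The P4 and E2+P4 libraries overlapped, and the placebo libraries were split by sample 5, the library of the later series, which at 68.4 CPM was above all 3 E2 libraries. The log2 fold change against placebo was 3.27 ± 0.51 with E2+P4 (adjusted p = 5.42e-05) and 3.37 ± 0.51 with P4 (adjusted p = 7.48e-05). With E2 it was 0.85 ± 0.47 (adjusted p = 0.364), and 2.17 (adjusted p = 8.93e-04) without placebo sample 5. E2+P4 and P4 differed by -0.11 ± 0.46 (adjusted p = 0.972), and with this SE a change larger than 0.46 could also have gone uncalled.

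In WT cells E2+P4 gave a larger change than either hormone alone. Fkbp5 had 354.4, 270.9 and 334.5 CPM with E2+P4, 31.5, 36.3, 18.3 and 16.5 CPM with P4 (samples 2 to 5) and 53.5, 41.6 and 34.0 CPM with E2, against 5.2, 14.0 and 6.54 CPM with placebo. None of the 3 hormone ranges overlapped the placebo range, and E2+P4 stood far above both single hormones. The log2 fold change against placebo was 5.22 ± 0.56 with E2+P4 (37.3-fold, adjusted p = 6.19e-08) and 2.32 ± 0.49 with E2 (5.01-fold, adjusted p = 5.83e-04). P4 alone gave 1.58 ± 0.46 (2.99-fold), which missed the threshold at adjusted p = 0.0839. The 2 WT P4 libraries of the later series were the lower ones, and without the later series the P4 change was 1.98 (adjusted p = 0.00445). E2+P4 exceeded E2 by 2.89 ± 0.50 (adjusted p = 1.15e-04) and P4 by 3.64 ± 0.46 (adjusted p = 8.22e-07). The joint response minus the sum of the single ones on the log2 scale was 1.68 ± 0.66 in D542G (adjusted p = 0.165), -0.96 ± 0.66 in Y541S (0.674) and 1.32 ± 0.64 in WT (0.198). Departure from additivity was therefore called in no genotype, where the same test called 3.89%, 0.564% and 11.4% of all genes; without Y541S placebo sample 5 the Y541S value was -2.28 (adjusted p = 0.0147).

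**Figure D2:**
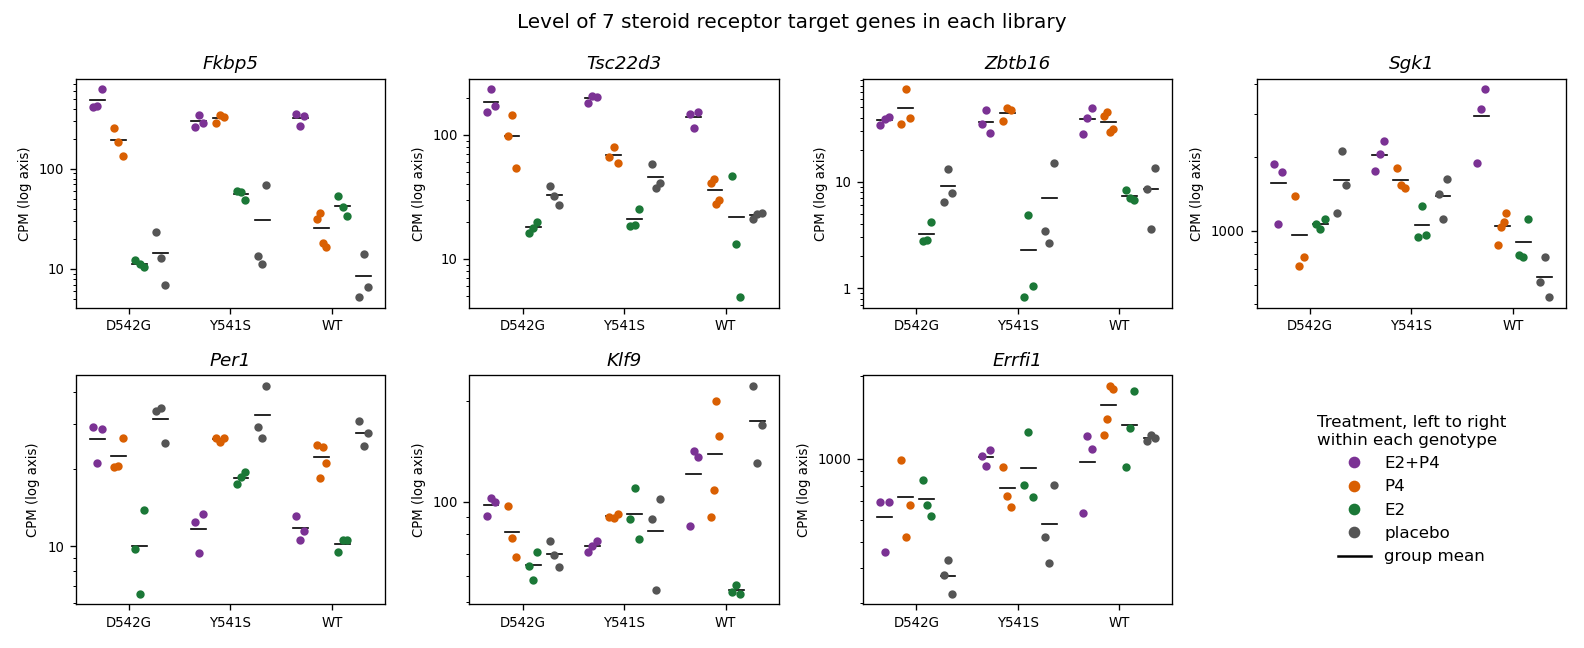
CPM of each of the 7 genes in every library (points; log axis) by genotype, with E2+P4, P4, E2 and placebo from left to right within each genotype and a bar at the group mean. Fkbp5 P4 libraries sit between 134.0 and 343.9 CPM in the mutants and between 16.5 and 36.3 CPM in WT.

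Set in order, Fkbp5 group means ran from 487.2 CPM in D542G E2+P4 through 320.9 CPM in Y541S P4, 319.9 CPM in WT E2+P4, 297.9 CPM in Y541S E2+P4 and 192.9 CPM in D542G P4 to 55.8 CPM in Y541S E2, and the other 6 groups averaged 8.58 to 43.0 CPM. The first group, the step below Y541S E2+P4 and the step below D542G P4 were separated without overlap, whereas each of the 6 lower groups overlapped its neighbour in the order. WT P4, at 25.6 CPM, stood at place 9, and the other 5 groups given progesterone took the first 5 places. The difference in P4 response from WT was 2.17 ± 0.65 in D542G (adjusted p = 0.0582) and 1.79 ± 0.64 in Y541S (adjusted p = 0.0875), so neither passed the test with all libraries, where 3.35% and 7.33% of all genes did. DESeq2 called both (adjusted p = 0.0125 and 0.0474). Without Y541S placebo sample 5 the Y541S difference was 3.11 (adjusted p = 8.56e-04), and the D542G difference was called without D542G placebo sample 1 (2.7, adjusted p = 0.031), WT P4 sample 3 (2.38, 0.0498) or D542G P4 sample 3 (2.37, 0.0449). The E2 response of Fkbp5 was lower in D542G than in WT by -2.67 ± 0.68 (adjusted p = 0.0112; -2.14 and 0.0539 without D542G placebo sample 1), and the Y541S difference was -1.48 ± 0.67 (adjusted p = 0.186).

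Over the 12 group means of log2 CPM, the 5 genes most like Fkbp5 among 10330 ranked were Sh3pxd2a (Pearson r = 0.969), Efna4 (0.953), Bex1 (0.937), Ypel1 (0.936) and Sema3c (0.933). Among the members r with Fkbp5 was 0.83 for Tsc22d3, 0.69 for Zbtb16 and 0.61 for Sgk1, but 0.0 for Errfi1, -0.04 for Klf9 and -0.14 for Per1. Its r with the receptor genes was -0.38 for Pgr, -0.04 for Nr3c1 and -0.75 for Nr3c2. These values describe 12 group means that share hormones, genotypes and marker shifts.

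Tsc22d3 (chrX:140539528-140600659, minus strand) encodes GILZ, a leucine-zipper protein through which glucocorticoids restrain NF-kB and AP-1. It was called higher with E2+P4 in every genotype. D542G cells had 151.8, 233.0 and 171.8 CPM with E2+P4, 98.7, 143.5 and 53.7 CPM with P4 and 16.1, 17.7 and 20.0 CPM with E2, against 38.5, 32.4 and 27.0 CPM with placebo. Y541S cells had 182.3, 204.8 and 203.7 CPM with E2+P4, 66.6, 80.6 and 59.1 CPM with P4 and 18.6, 18.9 and 25.2 CPM with E2, against 58.2, 37.6 and 40.8 CPM with placebo. In both mutants the E2 libraries lay below, and the P4 libraries above, the placebo range. WT cells had 148.6, 114.4 and 152.8 CPM with E2+P4, 40.7, 44.2, 27.7 and 30.0 CPM with P4 and 46.7, 13.3 and 4.89 CPM with E2, against 20.9, 23.0 and 23.4 CPM with placebo.

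The Tsc22d3 change with E2+P4 was 2.51 ± 0.44 on the log2 scale in D542G (adjusted p = 9.72e-05), 2.11 ± 0.43 in Y541S (9.6e-04) and 2.63 ± 0.44 in WT (5.41e-05). P4 alone was called in D542G (1.60 ± 0.43, adjusted p = 0.00955), though not without D542G placebo sample 3 (1.47, 0.0506) or D542G P4 sample 2 (1.22, 0.0863). P4 gave 0.60 ± 0.42 in Y541S (0.407) and 0.67 ± 0.40 in WT (0.478). E2 alone gave -0.86 ± 0.42 in D542G (0.171), -1.12 ± 0.42 in Y541S (0.137) and -0.05 ± 0.42 in WT (0.948). The WT E2 libraries disagreed, and without sample 1 the WT change was -1.31 (adjusted p = 0.00443). E2+P4 exceeded E2 alone by 3.37 ± 0.46 in D542G (adjusted p = 3.88e-06), 3.24 ± 0.45 in Y541S (1.52e-05) and 2.68 ± 0.44 in WT (7.21e-05). The WT value was uncalled in the fit of only the groups compared (2.71, adjusted p = 0.0831). The joint response exceeded the sum of the single ones by 2.64 ± 0.60 in Y541S (adjusted p = 0.0341) and 2.01 ± 0.57 in WT (0.0207), and by 1.77 ± 0.59 in D542G (0.0889). The Y541S call was lost under 12 of 19 alternatives, with adjusted p up to 0.109. The WT call was lost without WT E2 sample 2 (1.75, 0.0655), without WT E2+P4 sample 3 (1.93, 0.0557), without the later series (1.78, 0.0912), with the replicate block (1.84, 0.0763) and in the fit of only the groups compared (2.03, 0.125). The other 3 TSC22 family genes went the other way or did not move: with E2+P4, 2 of 3 were called lower in D542G, 3 of 3 in Y541S and 2 of 3 in WT, where Tsc22d1 changed by -1.42 ± 0.30 (adjusted p = 8.31e-04). Calls in either direction covered 25.4%, 18.5% and 23.4% of all genes.

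Zbtb16 (chr9:48654297-48836222, minus strand) encodes PLZF, a zinc-finger transcriptional repressor induced by glucocorticoids and progestins in several tissues. In the fit of all libraries it was the one member called higher with P4 in all 3 genotypes, whether or not E2 was given. It had 34.4, 39.0 and 40.4 CPM with E2+P4, 35.2, 73.9 and 39.5 CPM with P4 and 2.79, 2.83 and 4.17 CPM with E2 in D542G cells, against 6.41, 13.3 and 7.83 CPM with placebo. In Y541S cells it had 34.6, 47.0 and 29.0 CPM with E2+P4, 36.9, 49.9 and 47.6 CPM with P4 and 0.819, 4.92 and 1.06 CPM with E2, against 3.45, 2.67 and 15.0 CPM with placebo. In WT cells it had 28.4, 39.7 and 49.4 CPM with E2+P4, 41.5, 45.6, 29.2 and 31.2 CPM with P4 and 8.34, 7.04 and 6.69 CPM with E2, against 8.51, 3.63 and 13.4 CPM with placebo. The 6 groups with P4 averaged 36.9 CPM or more and the 6 without it 9.19 CPM or less, with a gap between every library of one kind and every library of the other.

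The Zbtb16 change with P4 was 2.43 ± 0.56 in D542G (adjusted p = 0.00329), 2.68 ± 0.57 in Y541S (0.00236) and 2.12 ± 0.53 in WT (0.0397); the WT call was lost under 10 of 14 alternatives, among them leaving out any 1 of the 7 libraries (1.75 to 2.6, adjusted p 0.0505 to 0.2). With E2+P4 it was 2.05 ± 0.55 in D542G (0.00676), 2.40 ± 0.56 in Y541S (0.00329) and 2.20 ± 0.56 in WT (0.00416). In a fit of only the groups compared, the Y541S calls were lost for P4 (2.62, adjusted p = 0.0706) and for E2+P4 (2.35, 0.0726). Adding E2 to P4 changed Zbtb16 by -0.39 ± 0.53 in D542G, -0.28 ± 0.53 in Y541S and 0.09 ± 0.49 in WT (adjusted p = 0.743, 0.927 and 0.931). Adding P4 to E2 raised it by 3.54 ± 0.59 in D542G, 4.03 ± 0.61 in Y541S and 2.41 ± 0.56 in WT (adjusted p = 6.47e-05, 4e-05 and 0.00272). E2 alone gave -1.49 ± 0.55 in D542G (0.0655) and -1.63 ± 0.56 in Y541S (0.095; -2.89 and 0.0067 without Y541S E2 sample 2), both called by DESeq2 (0.0267 and 0.0251), and -0.21 ± 0.54 in WT (0.808). With all libraries, no genotype difference was called for Zbtb16 in any of the 8 comparisons with WT. Without the 3 libraries left out for their markers, Y541S placebo against WT placebo was called (-1.84, adjusted p = 0.0287). The Y541S difference in E2 response was called without Y541S E2 sample 2 (-2.68, 0.0239).

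Sgk1 (chr10:21882184-21999903, plus strand) encodes a kinase that keeps epithelial sodium channels and other transporters at the cell surface. D542G cells had 1878.1, 1069.2 and 1747.3 CPM with E2+P4, 1387.6, 717.7 and 784.4 CPM with P4 and 1063.5, 1019.1 and 1122.5 CPM with E2, against 1183.6, 2131.0 and 1541.5 CPM with placebo. Y541S cells had 1753.1, 2068.8 and 2335.8 CPM with E2+P4, 1810.9, 1537.4 and 1492.5 CPM with P4 and 940.1, 1261.7 and 958.2 CPM with E2, against 1419.1, 1115.1 and 1627.8 CPM with placebo. WT cells had 1899.2, 3164.3 and 3796.6 CPM with E2+P4, 872.3, 1037.2, 1081.8 and 1178.7 CPM with P4 and 797.1, 784.1 and 1121.1 CPM with E2, against 618.0, 780.5 and 533.4 CPM with placebo. The 3 WT placebo libraries were below every placebo library of the mutants, and the hormone ranges in WT were all above placebo.

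Sgk1 rose with E2+P4 in WT by 2.20 ± 0.27 on the log2 scale (4.59-fold, adjusted p = 5.33e-07), whereas the mutants had -0.05 ± 0.26 in D542G (0.92) and 0.57 ± 0.26 in Y541S (0.13). The difference in response was itself called, at -2.25 ± 0.37 in D542G (adjusted p = 6.42e-04) and -1.63 ± 0.36 in Y541S (0.00435), where 4.3% and 8.68% of all genes were called. On placebo Sgk1 was higher than in WT by 1.33 ± 0.26 in D542G (2.51-fold, adjusted p = 0.00394) and 1.11 ± 0.26 in Y541S (2.15-fold, 0.00399), so these differences in response share the placebo libraries in which Sgk1 already differed. P4 alone gave -0.75 ± 0.26 in D542G (0.0416), 0.22 ± 0.26 in Y541S (0.657) and 0.70 ± 0.24 in WT (0.158). The D542G fall was lost under 8 of 11 alternatives, including leaving out D542G placebo sample 2 (-0.5, adjusted p = 0.25) or D542G P4 sample 2 (-0.58, 0.221). Its difference from WT was -1.44 ± 0.35 (0.0226). That call was lost without D542G placebo sample 2 (-1.2, 0.0898), D542G P4 sample 2 (-1.27, 0.093) or WT placebo sample 3 (-1.33, 0.0636). It was also lost without the later series (-1.3, 0.0749) and with the replicate block (-1.27, 0.0694). E2+P4 exceeded E2 by 0.55 ± 0.26 in D542G (0.132), 0.96 ± 0.26 in Y541S (0.014) and 1.71 ± 0.26 in WT (2.71e-05). The Y541S value was uncalled without Y541S E2 sample 1 (0.89, 0.0757), Y541S E2 sample 3 (0.9, 0.0675) or Y541S E2+P4 sample 3 (0.86, 0.0736).

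Of 8 partners and paralogs of SGK1, E2+P4 called 2 higher and 1 lower in D542G, 0 and 1 in Y541S and 2 and 2 in WT, where 25.4%, 18.5% and 23.4% of all genes were called. Scnn1a, the alpha subunit of the epithelial sodium channel that SGK1 protects, fell in each. It averaged 34.3 ± 2.95, 18.6 ± 2.54 and 13.0 ± 4.23 CPM with E2+P4 in D542G, Y541S and WT, against 235.6 ± 25.8, 78.4 ± 43.6 and 267.5 ± 51.1 CPM with placebo (SD, n = 3 each). Its WT change was -4.36 ± 0.47 (adjusted p = 6.43e-08), in the direction opposite to Sgk1. Nedd4l, the ubiquitin ligase that SGK1 inhibits, changed by 0.73 ± 0.19 in WT (0.00647).

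Per1 (chr11:69095217-69109960, plus strand) encodes a repressor of the circadian clock whose gene glucocorticoids induce directly. Here it was lower with E2 in every genotype. D542G cells had 29.1, 21.1 and 28.6 CPM with E2+P4, 20.3, 20.5 and 26.3 CPM with P4 and 9.78, 6.52 and 13.8 CPM with E2, against 33.7, 34.6 and 25.2 CPM with placebo. Y541S cells had 12.4, 9.38 and 13.3 CPM with E2+P4, 26.5, 25.5 and 26.5 CPM with P4 and 17.5, 18.6 and 19.4 CPM with E2, against 29.2, 26.4 and 42.1 CPM with placebo. WT cells had 13.1, 10.6 and 11.5 CPM with E2+P4, 24.8, 18.4, 24.4 and 21.1 CPM with P4 and 9.52, 10.6 and 10.6 CPM with E2, against 30.7, 24.5 and 27.7 CPM with placebo. In Y541S and WT the E2+P4 libraries were all below placebo, and in D542G they overlapped it. Immediate early and dissociation stress genes, a list of 25, had mean log2 CPM of 6.75 to 6.97 with E2+P4 in Y541S, against 7.83 to 8.52 with placebo. In WT these means were 7.32 to 7.96 with E2+P4 and 7.47 to 7.8 with E2, against 8.24 to 8.45 with placebo. In D542G they were 7.8 to 8.19 with E2+P4 and 7.42 to 7.73 with E2, against 7.79 to 8.0 with placebo. Their part in the Per1 values was not tested.

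The Per1 change with E2 was -1.63 ± 0.21 in D542G (adjusted p = 3.57e-06), -0.81 ± 0.21 in Y541S (0.0202) and -1.43 ± 0.21 in WT (7.15e-06). The Y541S call was lost under 8 of 13 alternatives, and without placebo sample 5 the value was -0.58 (adjusted p = 0.0903). With E2+P4 it was -0.25 ± 0.21 in D542G (0.412), -1.48 ± 0.21 in Y541S (1.96e-05) and -1.24 ± 0.21 in WT (6.13e-05). Adding P4 to E2 raised Per1 in D542G by 1.39 ± 0.21 (1.92e-05), against -0.67 ± 0.21 in Y541S (0.036, lost without Y541S E2+P4 sample 2 at -0.53 and 0.188 and under 5 other alternatives) and 0.20 ± 0.21 in WT (0.565). The D542G joint response departed from the sum of the single ones by 1.87 ± 0.29 (2.65e-04). The difference in E2+P4 response between D542G and WT was 0.99 ± 0.29 at adjusted p = 0.0499, and 12 of 18 alternatives, 10 of them leaving out 1 library, left it uncalled (0.86 to 1.07 without 1 library, adjusted p up to 0.145). The 13 clock genes tested of 15 listed, Per1 not counted among them, gave 1 higher and 9 lower with E2+P4 in D542G, 1 and 8 in Y541S and 2 and 6 in WT. In these genotypes 25.4%, 18.5% and 23.4% of all genes were called. Dbp, a clock output factor, fell in each, and averaged 3.28 ± 1.13, 1.71 ± 0.906 and 3.14 ± 0.28 CPM with E2+P4, against 40.3 ± 13.1, 21.3 ± 13.5 and 43.7 ± 14.4 CPM with placebo (SD, n = 3 each). Its changes were -3.62 ± 0.51, -3.64 ± 0.51 and -3.80 ± 0.51 (adjusted p = 5.78e-06, 1.67e-05 and 2.44e-06). The labels give no time of day for tissue collection.

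Klf9 (chr19:23141226-23168134, plus strand) encodes a Kruppel-like repressor induced by glucocorticoids and thyroid hormone. Its levels in WT were above those of both mutants with placebo and below them with E2, and overlapped those of both mutants with P4. D542G cells had 90.8, 102.3 and 100.1 CPM with E2+P4, 97.2, 77.9 and 68.3 CPM with P4 and 64.2, 58.5 and 70.8 CPM with E2, against 76.2, 69.5 and 63.7 CPM with placebo. Y541S cells had 70.9, 73.7 and 76.4 CPM with E2+P4, 90.1, 89.5 and 91.9 CPM with P4 and 88.7, 110.2 and 77.3 CPM with E2, against 88.9, 54.5 and 101.6 CPM with placebo. WT cells had 84.7, 141.9 and 136.0 CPM with E2+P4, 90.0, 108.5, 200.1 and 156.8 CPM with P4 and 53.7, 56.3 and 53.0 CPM with E2, against 222.1, 130.4 and 169.7 CPM with placebo. The WT E2 libraries were the lowest of the WT groups and the 2 WT P4 libraries of the later series the highest of theirs.

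No hormone comparison with placebo was called for Klf9 in either mutant, with estimates from -0.15 to 0.49; a fit of only the groups compared called D542G E2+P4 (0.49, adjusted p = 0.0147). In WT it fell with E2 by 1.68 on the log2 scale (SE 0.24, adjusted p = 5.15e-06), and E2+P4 exceeded E2 by 1.15 ± 0.24 (8.55e-04). The E2 response differed from WT by 1.57 ± 0.33 in D542G (adjusted p = 0.00275; 9.23% of all genes called) and by 1.85 ± 0.33 in Y541S (7.77e-04; 8.02% called). These differences share the placebo libraries in which Klf9 was already lower in both mutants than in WT. The WT joint response departed from additivity by 1.48 ± 0.32 (0.0027). Across the 12 group means r between Klf9 and Esr1 was 0.85. Esr1 belongs to the list of hormone-sensing markers, as does Pgr, so the marker means that follow are not independent of Esr1. WT E2 was also the group with the lowest hormone-sensing marker means, 5.53 to 6.75 against 8.73 to 9.29 in WT placebo, with summed marker levels of 886.3 to 1684.6 CPM against 5536.8 to 8485.6 CPM and 1 of 10 markers called higher and 9 lower. Luminal progenitor and alveolar markers had means of 6.85 to 7.38 in WT E2, against 4.52 to 5.17 in WT placebo, with 5 of 9 called higher and 0 lower and summed levels of 8023.0 to 28959.8 CPM against 3431.8 to 4010.7 CPM. Erythroid markers had means of 5.64 to 6.18 in WT E2, against 2.57 to 3.92 in WT placebo, with 2 of 4 called higher. Of all genes 31.5% were called between WT E2 and WT placebo. The part of these shifts in the Klf9, Per1 and Fkbp5 values of WT E2 was not tested. The 13 other KLF genes gave 2 called higher and 3 lower with E2+P4 in D542G, 2 and 2 in Y541S and 6 and 0 in WT, where Klf5 changed by 1.70 ± 0.27 (adjusted p = 2.53e-05). Among all genes the shares called with E2+P4 were 25.4%, 18.5% and 23.4%.

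Errfi1 (chr4:150853919-150868892, plus strand) encodes MIG6, a feedback inhibitor of the EGF receptor kinase. An antisense gene, 1700045H11Rik, overlaps it, and reads of the pair cannot be told apart in libraries that keep no strand. D542G cells had 694.1, 458.9 and 698.2 CPM with E2+P4, 988.1, 520.5 and 677.2 CPM with P4 and 837.5, 680.4 and 618.8 CPM with E2, against 376.8, 427.5 and 322.6 CPM with placebo. Y541S cells had 1024.1, 945.7 and 1073.5 CPM with E2+P4, 937.2, 733.4 and 671.0 CPM with P4 and 802.5, 1250.0 and 726.3 CPM with E2, against 521.4, 419.7 and 803.2 CPM with placebo. WT cells had 635.2, 1207.2 and 1082.8 CPM with E2+P4, 1227.0, 1394.0, 1843.9 and 1802.8 CPM with P4 and 935.4, 1295.7 and 1768.7 CPM with E2, against 1165.7, 1220.6 and 1190.0 CPM with placebo. The D542G placebo libraries were lower than every D542G hormone library, while the WT placebo values fell inside the spread of the WT E2 libraries.

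Relative to placebo, Errfi1 in D542G changed by 0.72 ± 0.27 with E2+P4 (adjusted p = 0.0521), 0.96 ± 0.27 with P4 (0.0146) and 0.92 ± 0.27 with E2 (0.0196). The P4 call was lost without D542G P4 sample 1 (0.67, 0.11) or D542G placebo sample 3 (0.86, 0.073), and the E2 call without D542G E2 sample 1 (0.79, 0.0839) or D542G placebo sample 1 (0.92, 0.0633) or 3 (0.82, 0.0833). In Y541S the E2+P4 change was 0.80 ± 0.27 (0.0381), a call lost under 7 of 13 alternatives (0.62 to 1.11 where 1 library was left out, adjusted p up to 0.186). In WT the 3 changes were -0.29 ± 0.27 with E2+P4, 0.39 ± 0.25 with P4 and 0.16 ± 0.27 with E2 (0.482, 0.526 and 0.688). Of 14 genes of the EGF receptor pathway, E2+P4 called 3 higher and 2 lower in D542G, 2 and 1 in Y541S and 2 and 3 in WT, where the ligand gene Hbegf changed by 1.75 ± 0.36 (6.06e-04) and the feedback inhibitor gene Spry4 by -1.51 ± 0.32 (9e-04). E2+P4 called 25.4%, 18.5% and 23.4% of all genes in D542G, Y541S and WT.

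On placebo, 3 of 7 members were called between D542G and WT, where 2.02% of all genes were, and 4 of 7 between Y541S and WT, where 13.4% were. Sgk1 was higher in both mutants, with the values given for it. Errfi1 was lower by 1.67 ± 0.28 in D542G, as a log2 fold change of -1.67 (adjusted p = 7.55e-04), and its change was -1.04 ± 0.27 in Y541S (0.0103; -0.85 and 0.0646 without Y541S placebo sample 3). Klf9 changed by -1.32 ± 0.24 in D542G (0.0016) and -1.09 ± 0.24 in Y541S (0.00201). In a fit of only the groups compared, the Y541S calls were lost for Klf9 (-1.06, adjusted p = 0.0978) and Errfi1 (-1.0, 0.0853). The ranges of mutant and WT placebo libraries did not overlap for Sgk1, Errfi1 and Klf9 in either mutant. The fourth Y541S call was Fkbp5, at 1.85 ± 0.49 (adjusted p = 0.01), with overlapping ranges and one high library: without Y541S placebo sample 5 it was 0.53 (0.477), without WT placebo sample 1 1.59 (0.0737) and without WT placebo sample 3 1.69 (0.0633). Of the 25 immediate early and dissociation stress genes, 0 were called higher and 1 lower in D542G placebo against WT placebo, and 3 and 7 in Y541S placebo against WT placebo. Their part in the Errfi1, Klf9 and Sgk1 values was not tested.

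**Figure D3:**
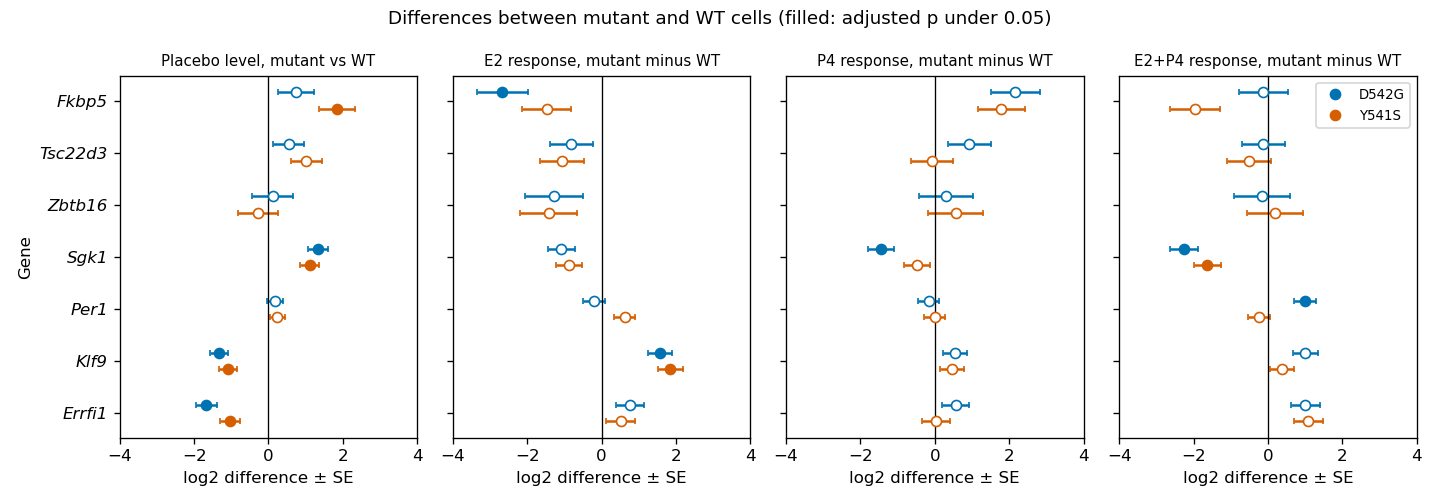
Log2 differences ± SE between D542G (blue) or Y541S (orange) and WT for the 7 genes, as placebo levels in the first panel and as responses to E2, P4 and E2+P4 in the others; filled points have an edgeR adjusted p under 0.05. On placebo Sgk1 lies at 1.33 and 1.11 and Klf9 at -1.32 and -1.09, and in the E2+P4 panel Sgk1 lies at -2.25 and -1.63.

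Genes of the glucocorticoid, progesterone and mineralocorticoid receptors were transcribed in every group. Nr3c1, the glucocorticoid receptor, averaged between 20.6 CPM in Y541S P4 and 62.5 CPM in Y541S E2; it fell with P4 in Y541S by 1.06 on the log2 scale (SE 0.27, adjusted p = 0.0103) and rose with E2 in WT by 0.78 ± 0.27 (0.0278). Pgr, the progesterone receptor, averaged 89.3 ± 35.1 CPM with P4 and 449.5 ± 71.5 CPM with E2 in D542G, against 260.1 ± 39.0 CPM with placebo. In WT it averaged 90.9 ± 26.5 CPM with P4 (n = 4) and 67.0 ± 23.8 CPM with E2, against 184.1 ± 97.7 CPM with placebo (SD, n = 3). Pgr fell with P4 in D542G by 1.54 (SE 0.37, adjusted p = 0.00464) and in Y541S by 1.16 (SE 0.37, 0.0388), while Fkbp5 rose in both. Nr3c2, the mineralocorticoid receptor, was lower with E2+P4 in every genotype, at 5.11 ± 0.885, 3.26 ± 1.3 and 5.81 ± 0.454 CPM in D542G, Y541S and WT, against 51.4 ± 12.4, 20.0 ± 11.6 and 81.1 ± 24.5 CPM with placebo (SD, n = 3 each).

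**Figure D4:**
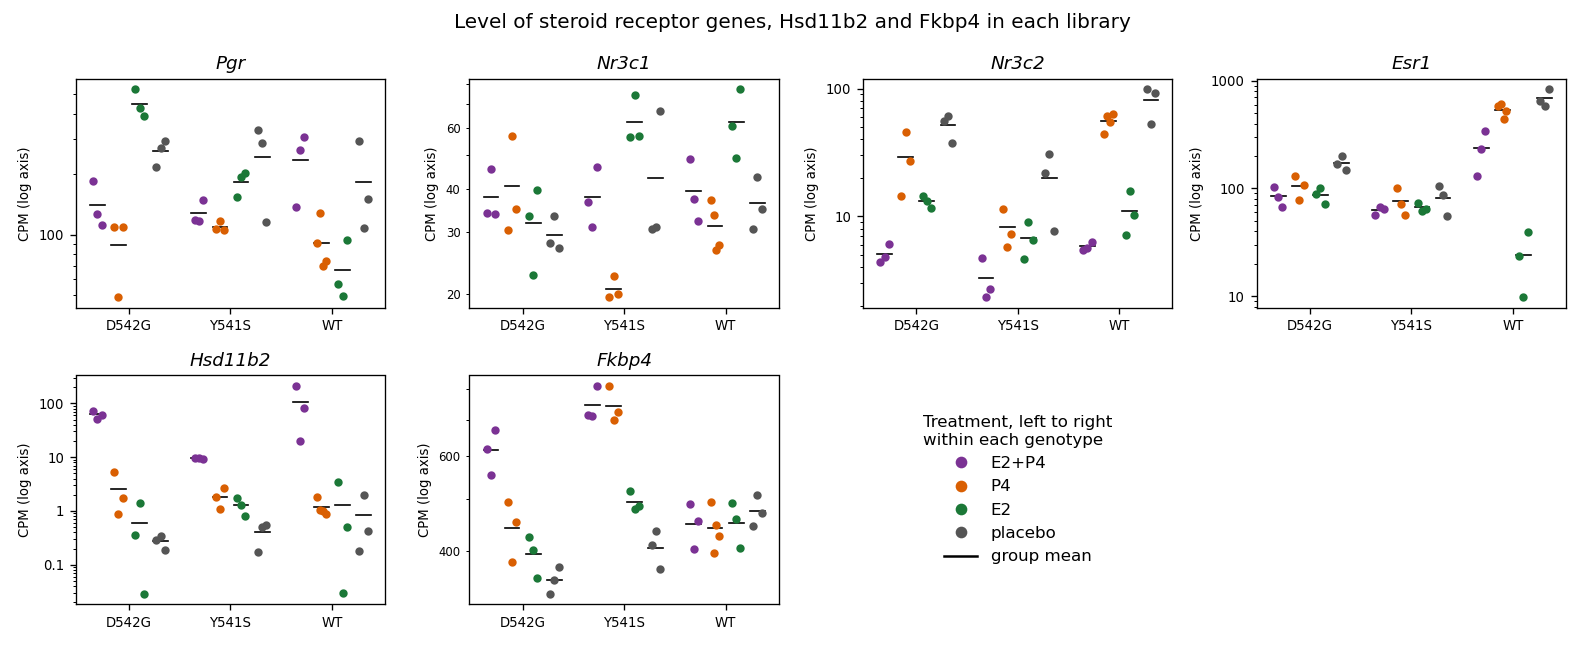
CPM in every library (points; log axes) of the progesterone (Pgr), glucocorticoid (Nr3c1), mineralocorticoid (Nr3c2) and estrogen (Esr1) receptor genes, of Hsd11b2 and of Fkbp4, by genotype and treatment, with a bar at the group mean. Hsd11b2 lies between 9.09 and 210.8 CPM in the 9 E2+P4 libraries and at 5.23 CPM or less in all others.

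Hsd11b2, the enzyme that inactivates corticosterone, rose with E2+P4 in all 3 genotypes. It had 72.7, 52.2 and 61.7 CPM in D542G E2+P4, against 0.295, 0.341 and 0.192 CPM in D542G placebo. It had 9.63, 9.82 and 9.09 CPM in Y541S E2+P4, against 0.171, 0.508 and 0.539 CPM in Y541S placebo. In WT it had 210.8, 20.2 and 83.4 CPM with E2+P4, against 0.183, 1.97 and 0.421 CPM with placebo. The log2 changes were 7.80 ± 1.20, 4.56 ± 1.06 and 6.92 ± 1.13 (adjusted p = 1.91e-05, 0.00303 and 3.73e-05). Hsd11b1, the enzyme of the opposite reaction, did not pass the filter. Fkbp4, the cochaperone that competes with FKBP5 on HSP90 and favours receptor activity, averaged 614.4 ± 59.8, 745.4 ± 55.4 and 448.4 ± 42.4 CPM with E2+P4 in D542G, Y541S and WT, against 352.7 ± 20.7, 404.5 ± 32.7 and 473.9 ± 31.0 CPM with placebo (SD, n = 3 each). It rose by 0.80 ± 0.11 in D542G (4.77e-06) and 0.88 ± 0.11 in Y541S (3.93e-06), and its WT change was -0.08 ± 0.11 (0.655). In D542G, Y541S and WT, E2+P4 called 25.4%, 18.5% and 23.4% of all genes. Of 13 receptor chaperones and cochaperones, E2+P4 called 5 higher and 2 lower in D542G, 5 and 0 in Y541S and 3 and 2 in WT. The 13 other FKBP family genes tested gave 5 and 3, 4 and 0, and 4 and 2; Fkbp11, an endoplasmic reticulum member, changed by 3.57 ± 0.25 in WT (5.62e-11).

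Other known glucocorticoid receptor targets, 24 in all, were called in both directions with E2+P4. There were 5 called higher and 2 lower in D542G, 4 and 3 in Y541S and 8 and 2 in WT, where 25.4%, 18.5% and 23.4% of all genes were called, with median log2 fold changes of 0.39, 0.18 and 0.63. With P4 alone, 5 and 1 were called in D542G, 4 and 3 in Y541S and 0 and 0 in WT. The shares of all genes called with P4 were 18.4%, 11.3% and 1.43%. Lcn2, an acute-phase siderophore-binding protein, and Arl4d, a small GTPase, were the WT E2+P4 calls with the smallest p among the higher ones, at 2.88 ± 0.50 (7.69e-05) and 1.92 ± 0.41 (8.84e-04). Dusp1 and Zfp36, textbook glucocorticoid targets that are also immediate early genes, had -0.18 ± 0.35 and -0.75 ± 0.31 in WT E2+P4 (0.759 and 0.0852). Sesn1 and Mt2 were lower with E2 in WT, by log2 fold changes of -1.62 ± 0.23 (3.96e-06) and -2.30 ± 0.40 (5.53e-05).

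Among 12 mammary progesterone receptor targets, E2+P4 called 6 higher and 1 lower in D542G, 4 and 3 in Y541S and 6 and 3 in WT. Of all genes, E2+P4 called 25.4%, 18.5% and 23.4% in these genotypes, and P4 alone 18.4%, 11.3% and 1.43%. P4 alone called 6 and 0 in D542G, 2 and 2 in Y541S and 5 and 1 in WT, where Bmp3 changed by 3.22 ± 0.60 (0.00608) and Tph1, the serotonin-synthesis enzyme, by 3.35 ± 0.67 (0.0101). Areg, the EGF family ligand of ductal growth, changed by 2.21 ± 0.46 with P4 in WT (0.0154). Some genes of this list, which was chosen with earlier results of these data known, were thus called in WT cells given P4 alone. In that group Zbtb16 was the 1 member called.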

How the data were processed

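RNA-seq gene counts and RPKM values from 37 libraries of sorted mouse mammary luminal cells were deposited by the authors, 1 table per library. Per the file headers and values, the counts are whole reads per Ensembl gene (unnormalized) and RPKM, reads scaled to length and library total, was computed by the authors on each gene's deposited width, which equals the genomic span for 85.6% of genes. RPKM entered no test. Per the submitters' processing notes the build was GRCm38; aligner, counter and strand setting are not given in the sources used here, and per the labels' protocols libraries were made with Nextera XT, which keeps no strand. Of 52636 gene IDs, 52403 matched a symbol.

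One edgeR 4.0.16 quasi-likelihood fit in R 4.3.3 (limma 3.58.1) held all 37 libraries and 12 groups, with TMM factors (0.77 to 1.17), filterByExpr (18426 genes), 25 residual degrees of freedom and a common biological coefficient of variation of 0.458. Hormone, genotype, interaction and additivity comparisons, 26 in all, used Benjamini-Hochberg adjusted p under 0.05. CPM used counts of tested genes and TMM factors; log2 fold changes carry the SE from the F statistic. The tests were tried on simulated data. Alternatives were RLE scaling, no filter, the replicate number as block, DESeq2 1.42.0, fits of only the groups compared, and leaving out libraries.

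The members and gene lists were chosen with earlier results of these data known. Named were the members, receptors, Fkbp4 and the Hsd11b genes, and from each list up to 3 genes with the smallest p in WT E2+P4 and up to 2 in WT E2 and WT P4, of which those beside a member are printed; Dusp1, Zfp36, Nedd4l and Areg were named after their values were seen. Likeness ranked genes whose mean log2 CPM reached 2 by Pearson r over group means. RefSeq promoter windows on GRCm38.p6 were searched by exact letters on both strands. Replicates differed beyond counting error in each of 39 pairs (chi-square over its degrees of freedom, 23.3 to 313.3), so none was counted as a duplicate. Results for 1 receptor gene and its targets are not reported here.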

Additional observations from a re-analysis of the deposited data

Results flagged for a closer look

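By the interaction terms of the edgeR fit, 5 of the 7 genes passed for a difference in response from WT or a departure from additivity, on the log2 scale. Tsc22d3 passed only for additivity, which is a comparison within a genotype. Taken 1 at a time, these comparisons called 0.564% to 11.4% of all genes. The share of all genes called in any of them was not computed. The response to E2 differed between D542G and WT for Fkbp5 (-2.67 ± 0.68, adjusted p = 0.0112) and Klf9 (1.57 ± 0.33, 0.00275), and between Y541S and WT for Klf9 (1.85 ± 0.33, 7.77e-04). All 3 D542G E2 libraries of Fkbp5 lay at 12.3 CPM or less, against 34.0 CPM or more in all 3 WT E2 libraries.

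The response to P4 differed between D542G and WT for Sgk1 (-1.44 ± 0.35, adjusted p = 0.0226). That call was lost without the later series (-1.3, 0.0749), among other alternatives. The response to E2+P4 differed from WT for Sgk1 in D542G (-2.25 ± 0.37, 6.42e-04) and in Y541S (-1.63 ± 0.36, 0.00435), and for Per1 in D542G (0.99 ± 0.29, 0.0499). The Sgk1 differences include higher Sgk1 levels in the placebo libraries of both mutants.

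The response to the hormone pair differed from the sum of the single responses for Tsc22d3 in Y541S (2.64 ± 0.60, adjusted p = 0.0341) and in WT (2.01 ± 0.57, 0.0207), for Klf9 in WT (1.48 ± 0.32, 0.0027), and in D542G for Sgk1 (1.3 ± 0.36, 0.0401) and Per1 (1.87 ± 0.29, 2.65e-04). The Sgk1 call was lost under 11 of 17 alternatives, among them D542G placebo sample 2 left out (1.06, 0.137). Within WT P4, the 1 group of 4 libraries, no member had a library beyond Dixon's critical value. Dixon's ratio looks for 1 extreme library and cannot flag a split by series. Fkbp5 had 31.5 and 36.3 CPM in samples 2 and 3, against 18.3 and 16.5 CPM in samples 4 and 5 of the later series.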

How the results depend on the processing

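For the other 6 members, 2244 values under alternatives held 2095 with the same direction and side of the threshold as reported, 100 that fell short of it and 49 that passed it; no called value changed sign, and 67 values uncalled in both had the other sign. For Fkbp5, log2 values changed side under these alternatives. Without the later identifier series, WT P4 against placebo was 1.98, Y541S E2 against placebo 2.17, Y541S placebo against WT placebo 0.53, the Y541S minus WT difference in P4 response 2.71 and the Y541S departure from additivity -2.27. Without the 3 libraries left out for their hormone-sensing, progenitor or G2 and M phase markers these were 2.01, 2.17, 1.08, 2.68 and -2.28. In that fit the D542G minus WT difference in P4 response was 1.73. DESeq2 gave 1.57 for WT P4, 2.21 and 1.73 for the D542G and Y541S differences in P4 response, and -2.02 for the Y541S difference in E2+P4 response. In a fit of only the groups compared, Y541S placebo against WT placebo was 1.92 (adjusted p = 0.221). The cause was not tested.

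Leaving out 1 library at a time moved Fkbp5 over 0.45 to 2.17 for Y541S E2 against placebo, 0.53 to 2.4 for Y541S placebo against WT placebo, -3.22 to -2.14 and 1.62 to 2.7 for the E2 and P4 responses in D542G minus WT, 1.24 to 3.11 and -2.5 to -0.63 for the P4 and E2+P4 responses in Y541S minus WT, and -2.28 to -0.55 for the Y541S departure from additivity.

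The number of members called also moved, with the reported count given first. WT P4: 1, with 0 under no filter, 2 without the later series, 2 by DESeq2, and 0 with any 1 library left out. D542G E2: 2, with 4 in the fit of only the groups compared and 1 to 2 leaving out 1 library. D542G P4: 5, and 2 to 5 leaving out 1 library. D542G E2+P4: 3, with 5 in the fit of only the groups compared. Y541S E2: 1, with 2 without the later series, without the 3 libraries and by DESeq2, 0 in the fit of only the groups compared and 0 to 2 leaving out 1 library. That fit gave 1 for Y541S P4 (reported 2), 3 for Y541S E2+P4 (5) and 2 for Y541S placebo against WT placebo (4). Y541S E2+P4 against P4: 1, with 2 by DESeq2 and 3 in that fit. Leaving out 1 library gave 0 to 1 for D542G E2+P4 against P4 (0) and 3 to 4 for Y541S E2+P4 against E2 (5).

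For differences in response from WT, the D542G P4 count was 1, with 0 without the later series, 2 without the 3 libraries, 2 by DESeq2 and 0 to 2 leaving out 1 library. The D542G E2+P4 count was 2, with 1 under RLE scaling, 1 under no filter and 1 to 2 leaving out 1 library. The Y541S P4 count was 0, with 2 without the later series, 1 without the 3 libraries, 1 by DESeq2 and 0 to 1 leaving out 1 library. The Y541S E2+P4 count was 1, with 2 under each of those 3 settings and 1 to 2 leaving out 1 library, as for the Y541S E2 count (1). For additivity, the WT count was 2, with 1 without the later series, 1 in the fit of only the groups compared and 1 to 3 leaving out 1 library. The D542G count was 2, with 4 by DESeq2 and 1 to 2 leaving out 1 library, and the Y541S count was 1, with 0 under no filter, 2 without the later series, 2 without the 3 libraries and 0 to 2 leaving out 1 library.

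The replicate numbers showed no clear pairing of the samples. Deviations of same-numbered libraries correlated by -0.61 to 0.67 (178 pairs, median 0.0). Those of libraries with other numbers correlated by -0.6 to 0.53 (449 pairs, median -0.0). Of 37 libraries, 14 correlated best with their own number, and the count to be met without pairing was not computed. With the replicate number as a block, Fkbp5 in Y541S placebo against WT placebo was 1.21 (adjusted p = 0.173), and members called were 0 for WT P4, 0 for Y541S E2, 0 for the P4 response in D542G minus WT, 2 for the E2+P4 response in Y541S minus WT, and 1 each for additivity in WT and D542G. Genes called with the block were 79 for WT P4 (263 without it), 349 for the P4 response in Y541S minus WT (1350), and 1331 and 197 for additivity in WT (2099) and Y541S (104).

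Counts over all genes moved by over 1.5 times elsewhere too. WT P4 called 263 genes, with 160 under no filter, 523 without the 3 libraries, 761 by DESeq2 and 408 in the fit of only the groups compared. Y541S E2 called 857, with 1743 without the later series, 1878 without the 3 libraries, 1439 by DESeq2 and 0 in that fit. That fit gave 3139 for WT E2 (5796), 2175 for D542G P4 (3385), 1160 for Y541S P4 (2077), 1922 for Y541S E2+P4 (3417), 952 for Y541S placebo against WT placebo (2469), 394 and 933 for the Y541S differences in E2 and E2+P4 response (1478 and 1599), and 892, 215, 3535 and 1966 for E2+P4 against E2 in WT (3406), P4 in D542G (953), E2 in Y541S (1918) and P4 in Y541S (310). DESeq2 gave 1523 and 653 for E2+P4 against P4 in D542G and Y541S, 667 for D542G placebo against WT placebo (372), 1262 and 1425 for the D542G differences in P4 and E2+P4 response (617 and 792), 2130 for the Y541S difference in P4 response, and 1423 and 434 for additivity in D542G (716) and Y541S. Without the later series, WT E2+P4 against P4 called 2792 (4274), the Y541S differences in E2 and P4 response 941 and 510, and Y541S additivity 501; without the 3 libraries the last 2 were 629 and 525. Depth was at least 25.69 M counts (M, 1e6), and Zbtb16 in Y541S E2 had the lowest member level, at 0.819 CPM.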
